A study of Mus musculus with 13 samples.

Results

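Kinesins, dyneins and tubulins are the motors and the track of microtubule transport. The 49 genes described here are those whose symbol in the scanner table starts with Kif and a digit, Dync, Dynll, Dynlt, Dynlr, Dnah, Klc, Tuba or Tubb, leaving out Kif11 and Tubb3. They are 49 of 18038 genes on the array and are read by 81 of its 25697 probes. Their levels were compared in 5 populations sorted from cochleae of 3-day-old C57BL6 mice that all carried the Math1-nGFP reporter, whose nuclear GFP follows the enhancer of the hair cell gene Atoh1. HC holds the hair cells, gated as GFP-positive, on 4 arrays (A to D). The other populations were GFP-negative. GER, from the greater epithelial ridge (CD271 low, CD146 high, CD326-positive), had 3, and DC, the gate for Deiters' and Claudius cells (CD271 low, CD146 low, CD326-positive), had 2. CD271high, sorted for high CD271 and labelled as suspected macrophages, had 3, and BM, cells from below the basilar membrane (CD271 low, CD326-negative), had 1. Nothing in the labels says whether replicates came from separate animals or pools, so p-values measure only how these samples vary, and that spread may be technical.

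Microtubules are polymers of alpha and beta tubulin. Most kinesins walk toward the growing end of a microtubule and carry vesicles and organelles, and cytoplasmic dynein carries cargo the other way. Another group of kinesins builds the spindle and separates chromosomes and daughter cells in mitosis. Axonemal dyneins bend motile cilia. Hair cells of the young cochlea still bear a kinocilium, a true cilium beside the hair bundle, and pillar and Deiters' cells are known for dense microtubule bundles.

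The sorts were first read against marker genes, as the mean over a list of each gene's log2 level minus its mean over the 13 arrays. All 7 hair cell markers were raised in HC over both epithelial gates, with scores of 3.95 to 4.22 in HC and -2.13 to -1.20 in GER and DC. Of 6 genes of Deiters' and pillar cells, 5 were higher in DC than in GER. HC scored 0.80 to 1.20 on this list, DC 1.60 to 1.95 and GER -1.19 to -0.75. In HC 2 of the 6 were higher than in GER and DC, 0 were lower and 4 did not pass. The part of supporting cell RNA in HC was not tested. Of 5 genes listed for the greater epithelial ridge, 0 passed as higher and 1 as lower in GER than in DC. By this test the list did not set GER apart. Crabp1 (13.14 to 13.53 in GER, 10.93 and 11.20 in DC) and Epyc (13.92 to 14.50 against 13.24 and 13.29) were still higher on every GER array. Fst was lower on every GER array (8.61 to 9.69 against 11.10 and 11.27), and Tecta and Otoa overlapped. CD271high scored 4.81 to 4.87 for the 9 macrophage genes that passed the filter (Ptprc was detected on too few arrays) and also 2.71 to 3.29 for 4 genes of Schwann and satellite glia, for which BM scored 3.75. BM scored 3.20 for mesenchyme. Replicate D of HC differed from the other HC arrays for glia (1.06 against -2.62 to -1.75) and for 12 genes of proliferating cells (0.79 against -1.20 to -0.83). HC also ran from -0.34 to 1.76 for 5 endothelial genes, 3 of which were raised over GER and DC.

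Of the 49 genes, 38 passed the filter, which asks for 2 or more arrays with a detection p under 0.01. Kif1c, Kif5b, Kif12, Kif14, Kif17, Kif20a, Kif2b, Kif24, Dnah5, Dnah11 and Tubb1 did not and are not described further. A further 14 genes of the same families stand in the table under older or other symbols. Examples are Dync1h1 as Dnchc1, Dynlrb2 as Dncl2b, Tubb4b as 4930542G03Rik and Klc3 as Ercc2. All 14 fall outside the rule and are given only as relatives. Values are log2 levels after background correction and quantile normalization, each ± is the standard error (SE) of a fitted difference, and adjusted p is Benjamini-Hochberg over all 10088 genes tested. The lowest level that counted as detected lay between 6.76 and 7.35 depending on the array. Levels of different genes come from different probes and are not compared with each other.

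The promoters of the mitotic kinesins are shown first, because these genes moved together. Promoters were read from RefSeq's table for GRCm38.p6, with those of a single chromosome left out. Among the promoters read, 40 of the 49 genes have a promoter. Each promoter has 250 bases before and 50 after the annotated start, and the stretch from 120 bases before to 50 after is printed here 5′ to 3′ on the gene's strand. Capitals mark 3 motifs, searched on both strands: TTTGAA, the core of the cell cycle homology region found in many genes of mitosis, CCAAT, the box bound by the factor NF-Y, and GTTGCC, an arm of the X-box bound by RFX factors of ciliated cells. No capital run overlaps another in the stretches shown.
Kif23, chr9:61946750-61946919, minus strand: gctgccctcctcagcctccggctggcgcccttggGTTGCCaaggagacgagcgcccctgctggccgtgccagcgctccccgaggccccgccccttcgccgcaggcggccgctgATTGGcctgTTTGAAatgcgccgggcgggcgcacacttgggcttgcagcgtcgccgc
Kif4, chrX:100625945-100626114, plus strand: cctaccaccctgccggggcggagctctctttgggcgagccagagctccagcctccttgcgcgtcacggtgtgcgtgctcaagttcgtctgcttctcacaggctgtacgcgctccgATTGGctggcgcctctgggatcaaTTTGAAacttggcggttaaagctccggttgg
Kif22, chr7:127042371-127042540, minus strand: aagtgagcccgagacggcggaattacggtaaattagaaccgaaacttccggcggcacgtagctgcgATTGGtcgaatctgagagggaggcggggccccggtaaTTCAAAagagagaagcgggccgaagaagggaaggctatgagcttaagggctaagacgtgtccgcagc
Kif15, chr9:122950961-122951130, plus strand: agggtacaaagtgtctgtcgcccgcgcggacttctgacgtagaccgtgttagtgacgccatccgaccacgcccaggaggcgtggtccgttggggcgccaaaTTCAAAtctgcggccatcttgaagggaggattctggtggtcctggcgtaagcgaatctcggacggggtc
Kif2c, chr4:117178723-117178892, minus strand: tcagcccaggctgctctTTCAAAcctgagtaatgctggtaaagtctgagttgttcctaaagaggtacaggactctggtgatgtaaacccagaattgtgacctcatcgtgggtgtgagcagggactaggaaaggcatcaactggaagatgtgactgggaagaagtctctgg
Kif18a, chr2:109280618-109280787, plus strand: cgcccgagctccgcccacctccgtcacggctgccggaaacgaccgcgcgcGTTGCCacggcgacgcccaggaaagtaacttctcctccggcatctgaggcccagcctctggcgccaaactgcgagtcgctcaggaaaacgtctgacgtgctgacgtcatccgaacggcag

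TTTGAA or its reverse complement stood in the promoters of 5 of these 6 genes (83.3%), Kif18a being the exception. It stood in 17.9% of the 32851 promoters read and in 11 of the 40 genes of the whole family with a promoter (27.5%). A family gene was counted once if any of its promoters matched, while the share of all promoters counts each promoter. In Kif23, Kif4, Kif22 and Kif15 a copy lay within 20 bases of the annotated start, beginning at positions 3, 20, -17 and -19. CCAAT stood in 3 of the 6, against 37.4% of all promoters. These matches describe letters in a window, not bound sites.

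Mitotic kinesins were high in CD271high and in BM. All 6 that passed the filter, Kif2c, Kif4, Kif15, Kif18a, Kif22 and Kif23, were higher in CD271high than in the mean of GER and DC, by a median log2 difference of 2.67 against -0.09 over all genes tested. Of these, Kif2c was detected only on CD271high and BM arrays, so it passed the filter through CD271high. Kif4 and Kif15 were detected there and on 1 HC array. The count and the median therefore depend in part on the filter. In GER and DC all but Kif22 were undetected, so the median also rests on background levels. For scale, 33.2% of all genes passed this comparison, 15.3% as higher and 18% as lower. In these bulk sorts more cells of a type and more RNA per cell cannot be told apart. CD271high also shares its GER and DC reference arrays with the hair cell comparison given further on.

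Kif23, the motor of the central spindle that is needed for cytokinesis, stood at 9.01, 9.45 and 9.49 in CD271high and 9.31 in BM. It lay at 6.24, 5.83 and 6.08 in GER and 5.92 and 5.69 in DC, where no array detected it. The gap in favour of CD271high was at least 4.60-fold (fitted difference 3.39 ± 0.32, adjusted p = 5.7e-06), a lower bound that sets each undetected array to its lowest detected level. The HC arrays lay between these populations without touching either, at 8.61, 7.54, 7.03 and 8.43.

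Kif4, a chromosome-bound kinesin that shapes chromosome arms and the midzone, was 8.45, 9.12 and 9.01 in CD271high and undetected on the 5 GER and DC arrays, whose levels ran from 5.64 to 6.75. Its bound was at least 3.35-fold (adjusted p = 0.00022). Kif15, which helps to hold spindle poles apart, was 8.53, 8.71 and 8.55 in CD271high, at least 2.79-fold higher (adjusted p = 2e-05). Kif2c, which shortens microtubules at centromeres, was 7.83, 8.27 and 8.51, at least 2.13-fold higher (adjusted p = 1e-04). Kif18a, which damps chromosome movements at the metaphase plate, was 7.20, 7.98 and 7.80, at least 1.46-fold higher (adjusted p = 0.00049). None of these 4 genes was detected in GER or DC, and none overlapped between CD271high and the 5 arrays.

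Kif22, a kinesin that binds chromosomes, was the only mitotic member detected on every array. It was 10.18, 10.63 and 10.37 in CD271high against 7.84, 8.40 and 7.58 in GER and 7.70 and 8.21 in DC, a 5.45-fold difference (2.45 ± 0.40, adjusted p = 0.00052). BM was above all other 12 arrays for Kif2c (8.89), Kif15 (9.23), Kif18a (8.25) and Kif22 (10.83), with 1 array and so no test. Kif18b, a relative of Kif18a listed under an older symbol, was at least 3.26-fold higher in CD271high (adjusted p = 0.00012).

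**Figure D1:**
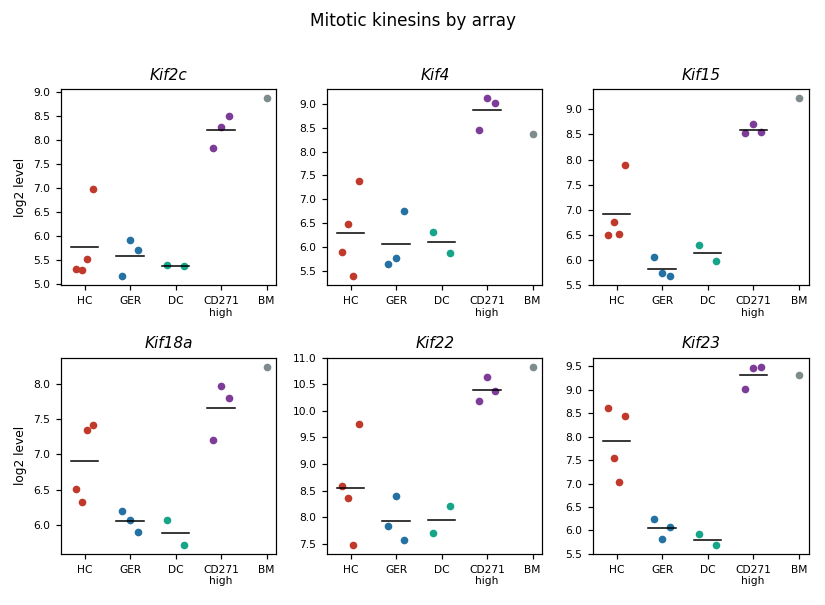
Log2 level (vertical axis, a separate scale in each panel) of the 6 mitotic kinesins on every array, by population. Points are arrays and black lines population means. CD271high and BM lie above every GER and DC array in all panels, and HC replicate D, the last HC point, is the highest HC array for Kif2c, Kif4, Kif15, Kif18a and Kif22.

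The list of proliferating cells moved with these kinesins. Of its 20 genes, which hold no kinesin, 12 passed the filter, and all 12 were higher in CD271high, with a median difference of 3.28. The filter can admit a gene through CD271high alone, so this count can depend on it too. Its scores were 1.78 to 2.20 in CD271high and 1.95 in BM against -1.36 to -0.81 in GER and DC. The macrophage and glia scores of CD271high given above moved with the kinesins too, and their part in the result was not tested. The arrays lay on 2 beadchips, slides that each hold several arrays. Within beadchip 1 all 6 kinesins passed, with differences of 1.88 (Kif18a) to 3.55 (Kif23). Within beadchip 2, which holds 1 CD271high and 1 GER array and no DC array, the differences of Kif23 (2.93, adjusted p = 0.098), Kif15 (2.86, 0.11), Kif22 (2.60, 0.28), Kif2c (2.14, 0.27), Kif4 (1.70, 0.41) and Kif18a (1.30, 0.34) did not pass.

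In HC, 3 of the 6 mitotic kinesins were raised over GER and DC and 3 did not pass. Kif23 was detected on all 4 HC arrays, with a gap of at least 1.72-fold (1.98 ± 0.29, adjusted p = 0.00015). Kif15 (0.93 ± 0.26, adjusted p = 0.011) and Kif18a (0.93 ± 0.25, adjusted p = 0.0095) also passed but were detected on 1 and 2 of the 4 HC arrays, so no fold is given. Kif22 (0.60 ± 0.37, adjusted p = 0.2), Kif2c (0.29 ± 0.33, adjusted p = 0.51) and Kif4 (0.21 ± 0.37, adjusted p = 0.67) did not pass. Kif2c was detected on 0 HC, GER and DC arrays and Kif4 on 1 HC array, so their differences lie between background levels. Kif2c stood at 6.99 in HC replicate D and between 5.28 and 5.52 in the others, all undetected. Replicate D, with its higher glia and proliferation scores, was also the highest HC array for Kif15 and Kif4. Without it the difference of Kif23 was 1.80 (adjusted p = 0.00048), that of Kif15 0.60 (0.0056) and that of Kif18a 0.76 (0.028). Beadchip 1 holds only 1 HC array, so each HC value within it has 1 array on that side. Kif15 and Kif18a did not pass within beadchip 1 (0.47 and 0.49, adjusted p = 0.18 and 0.14) or beadchip 2 (1.38 and 1.14, adjusted p = 0.19 and 0.21), nor did Kif23 within beadchip 2 (1.59, adjusted p = 0.14).

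The next question was which motors set hair cells apart from the epithelial cells beside them, represented by GER and DC. In HC 13 of the 38 genes were higher and 5 lower, with 20 that did not pass, so 47.4% passed against 46% of all genes tested (19.5% higher and 26.5% lower). The share that passed was thus near that of all genes. The median difference of the 38 was 0.34, against -0.09 over all genes. The higher genes include Kif21b, Kif9, Dnah8 and Tuba8, detected only on HC arrays, and Kif5a, detected there and on 1 GER array. These genes passed the filter through HC, so the count of higher genes and the median depend in part on it.

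Among transport kinesins, 4 of 10 were higher, 1 was lower and 5 did not pass. Kif21b, a slow kinesin known from neuronal dendrites, stood at 10.14, 9.02, 9.51 and 9.43 on HC arrays A to D. On the 5 GER and DC arrays it lay between 5.16 and 6.19, and no array outside HC detected it. The gap to HC was at least 5.32-fold (fitted difference 4.0 ± 0.25, adjusted p = 9.1e-08).

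The conventional kinesin heavy chains Kif5a and Kif5c, which haul vesicles and mitochondria along axons, were both higher. Kif5a, the form most restricted to neurons, was 8.84, 8.88, 9.02 and 8.62 in HC and was detected on 1 of 5 GER and DC arrays, where it ran from 5.80 to 7.20 (2.5 ± 0.28, adjusted p = 1.8e-05), so no fold is given. Kif5c was detected on all arrays, at 12.54, 12.41, 11.95 and 12.28 in HC, 11.12, 10.87 and 11.06 in GER and 11.01 and 10.93 in DC (1.30 ± 0.14, 2.47-fold, adjusted p = 1.3e-05). Every GER and DC array lay below every HC array. Klc2, a light chain that links these heavy chains to cargo, was 2.0-fold higher (1.0 ± 0.18, adjusted p = 0.00079), at 9.97, 9.47, 9.48 and 9.58 in HC against 8.26 to 8.78. Its 2 probes gave 1.0 and 1.10. Kif13a, which moves endosomes and mannose 6-phosphate receptors, was 9.97, 10.19, 10.13 and 9.35 in HC against 8.10 to 8.83, 2.55-fold higher (1.35 ± 0.19, adjusted p = 1e-04).

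The other kinesins of axonal and vesicle transport did not pass, apart from Kif3b. Kif1b, a carrier of mitochondria and synaptic vesicle precursors, differed by 0.27 ± 0.12 (adjusted p = 0.1), Kif1a, its neuronal relative, by 0.40 ± 0.19 (0.12) and Kif21a by -0.37 ± 0.27 (0.28). The third probe of Kif1b gave -0.56. The heterotrimeric kinesins are built of Kif3a, Kif3b or Kif3c, and the adaptor Kifap3, and the form with Kif3b drives transport into cilia. Kif3a differed by 0.40 ± 0.24 (adjusted p = 0.19) and Kif3c by -0.03 ± 0.14 (0.86). Kifap3, read among the motor regulators, was 12.84, 12.55, 12.90 and 12.49 in HC, above the 11.32 to 11.68 of GER and DC. Kif3b was the transport kinesin that passed as lower (-0.72 ± 0.20, adjusted p = 0.011), but its probe was detected on 0 of 4 HC and 1 of 5 GER and DC arrays, so no fold is given. It did not pass against DC alone (-0.48, adjusted p = 0.17), within beadchip 1 (-0.84, 0.063) or within beadchip 2 (-0.92, 0.2).

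Within beadchip 2 alone, which has 1 GER array and no DC array as reference, 8 members were higher and 0 lower. There Kif5c (1.16, adjusted p = 0.062), Klc2 (0.89, 0.067) and Kif13a (1.34, 0.1) no longer passed, while Kif21b, Kif5a, Kif27, Kif9, Dnah8, Tuba4a and Tuba8 passed in all 21 alternatives run. Of those that passed in all alternatives, all but Kif27 and Tuba4a had met the filter through HC. The neuron list was read beside these genes. Of its 4 genes that passed the filter 3 were higher in HC, with scores of 2.07 to 2.57 in HC and -1.34 to -0.60 in GER and DC. The higher genes were Rbfox3, Nefm and Ina. Nefm and Ina were undetected outside HC and passed the filter through HC, so this count and these scores depend in part on it. Syt1 was not raised, with means of 11.31 in HC, 11.98 in GER and 11.36 in DC. The other 6 of its 10 genes (Nefl, Nefh, Snap25, Elavl3, Elavl4 and Prph) did not pass the filter. The part of neuronal RNA in these differences was not tested.

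**Figure D2:**
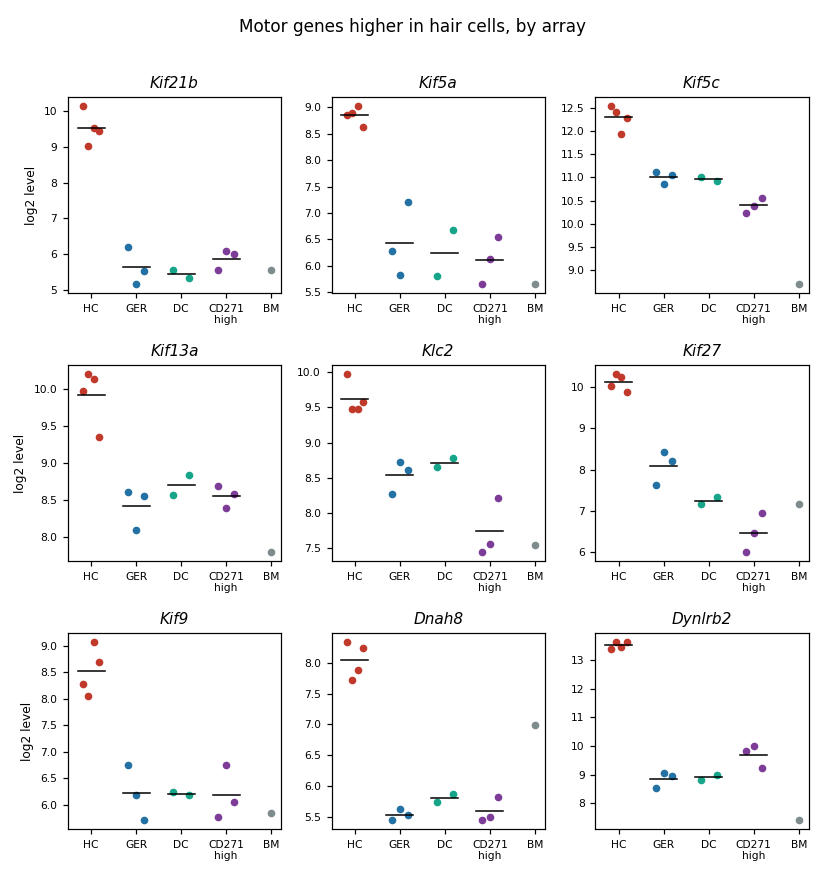
Log2 level (vertical axis, a separate scale in each panel) of motor genes that passed as higher in HC, on every array. Points are arrays and black lines population means. The 4 HC arrays lie above all GER, DC, CD271high and BM arrays in each panel, and Dynlrb2, in the last panel, is a relative listed under an older symbol.

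Kif27, Kif9 and Dnah8, which are known from cilia and flagella, were also higher in HC. Kif27, a kinesin of ciliary axoneme assembly related to the Hedgehog regulator Kif7, was 10.04, 10.32, 10.24 and 9.90 in HC. It lay between 7.17 and 8.43 in GER and DC, a 5.48-fold difference (2.46 ± 0.21, adjusted p = 1.8e-06). Kif9, a kinesin of motile cilia and sperm flagella, was 8.28, 8.06, 9.07 and 8.70 in HC and detected on no other array, at least 2.66-fold higher (adjusted p = 2.5e-05). Dnah8, an axonemal dynein heavy chain known from sperm flagella, was 8.34, 7.71, 7.89 and 8.24 in HC and detected on no other array, at least 1.91-fold higher (adjusted p = 1.1e-07). The other axonemal heavy chain that passed the filter, Dnah2, was detected on the 3 CD271high arrays (7.13, 6.85 and 7.67) and in BM (8.03) and on no HC, GER or DC array. Its difference between CD271high and GER with DC did not pass (0.76 ± 0.31, adjusted p = 0.084).

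The dynein light chain Dynlrb2, a relative under an older symbol, was also higher in HC. It was 13.38, 13.63, 13.46 and 13.63 in HC against 8.52 to 9.04 in GER and DC, 25.2-fold higher (4.66 ± 0.18, adjusted p = 9.6e-10). Its ubiquitous paralog Dynlrb1 differed by 0.01 ± 0.11 (adjusted p = 0.96). Of 26 partners of axonemal dynein, 18 were on the array and 14 were tested, of which 11 were higher and 0 lower, with 3 short of the threshold and a median difference of 1.31. Over all genes, 19.5% were higher. Dnaaf1 and Ccdc39 were undetected outside HC, so they passed the filter through HC. This count and median therefore depend in part on the filter. For Dnaaf1, a factor that assembles dynein arms, the gap was at least 6.59-fold (adjusted p = 5.8e-10) and for Ccdc39, part of the axonemal ruler, at least 2.99-fold (adjusted p = 5.7e-06), while Rsph1, a radial spoke protein, differed by 2.66 ± 0.29 (adjusted p = 1.5e-05). Of 16 tested genes of intraflagellar transport, the cargo trains that Kif3a and dynein 2 pull along the axoneme, 10 were higher, 1 was lower and 5 stayed short of the threshold (median 0.52). Ift172 differed by 1.53 ± 0.12 (adjusted p = 9.4e-07), Ift80 by 1.32 ± 0.23 (0.00052) and Ift22 by 1.10 ± 0.27 (0.005). Dync2li1, the light intermediate chain of the ciliary dynein, differed by 0.41 ± 0.20 (adjusted p = 0.11).

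The X-box arm GTTGCC or its reverse complement stood in the promoters of 2 of the 7 non-mitotic members higher in HC that have a promoter in the table, Kif9 and Tuba8, and in that of Dynlrb2. It stood in 12.5% of all promoters and in 12 of the 40 genes of the family with a promoter (30%), among them Kif18a and Kif23 above. The same stretches of these 3 promoters are printed with the arm in capitals, for Kif9 from the first of its 2 annotated starts.
Kif9, chr9:110476838-110477007, plus strand: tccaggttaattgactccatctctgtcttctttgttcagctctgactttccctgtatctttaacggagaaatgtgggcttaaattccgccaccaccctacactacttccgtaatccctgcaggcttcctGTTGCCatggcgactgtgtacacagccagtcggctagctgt
Dynlrb2, chr8:116504895-116505064, plus strand: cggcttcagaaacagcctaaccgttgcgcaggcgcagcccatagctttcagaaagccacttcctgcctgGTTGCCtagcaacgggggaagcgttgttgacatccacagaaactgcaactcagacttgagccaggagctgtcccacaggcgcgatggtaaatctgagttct
Tuba8, chr6:121210614-121210783, plus strand: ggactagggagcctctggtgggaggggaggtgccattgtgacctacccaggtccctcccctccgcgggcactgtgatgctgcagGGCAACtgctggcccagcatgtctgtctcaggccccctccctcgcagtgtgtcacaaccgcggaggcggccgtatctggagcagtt

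Among members for cytoplasmic dynein, the general minus-end motor, no difference passed between HC and the epithelial gates. The relative Dynlrb2, a dynein light chain given above, was higher in HC. Dync1i2, the intermediate chain found in all cells, lay between 13.29 and 13.89 on the HC, GER and DC arrays (-0.26 ± 0.12, adjusted p = 0.091). Dync1li2, a light intermediate chain, was 7.61, 8.63, 9.16 and 7.82 in HC against 8.67 to 9.40 in GER and DC, which overlap (-0.72 ± 0.29, adjusted p = 0.065). Dynll1, a light chain shared with many other complexes, differed by 0.18 ± 0.13 (adjusted p = 0.29). The heavy chain Dync1h1, a relative, lay between 11.11 and 11.66 on all 13 arrays (-0.23 ± 0.13, adjusted p = 0.16). Of 11 tested genes of dynactin, the complex that couples dynein to cargo, 1 was higher (9.09%) and the others did not pass. Of all genes, 46% passed. The higher dynactin gene was Dctn3, the p24 subunit (1.67 ± 0.13, adjusted p = 7.2e-07).

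Among 31 motor regulators and cargo adaptors 15 were higher and 4 lower (61.3%, against 46% of all genes). Fez1, an adaptor of conventional kinesin in axons, differed by 4.69 ± 0.15 (adjusted p = 2.6e-10). Sybu, which links kinesin to syntaxin vesicles, differed by 3.88 ± 0.21 (adjusted p = 2.3e-08) and Nin, a centrosomal anchor and dynein adaptor, by 2.48 ± 0.26 (adjusted p = 8.6e-06). Among 15 genes of microtubule nucleation 2 were higher and 3 lower (33.3%). Cdk5rap2, a centrosomal activator of nucleation, was 2.91 ± 0.15 higher (adjusted p = 1.3e-08).

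Tubulins split by isotype in HC. Among 7 alpha tubulin genes 2 were higher and 2 lower, and among 4 beta tubulin genes 0 were higher and 2 lower; the other 5 tubulins did not pass. Tuba4a, whose product ends without the tyrosine that most alpha tubulins carry, was 8.89, 8.89, 8.43 and 9.07 in HC. It lay at 6.68, 7.24 and 6.27 in GER and 7.23 and 7.72 in DC, a difference of 1.72 ± 0.23 (adjusted p = 8.1e-05). Both DC arrays but no GER array detected it, so no fold is given. Tuba8, a divergent alpha tubulin, was 8.30, 7.35, 6.95 and 7.19 in HC and detected on no other array, at least 1.26-fold higher (adjusted p = 0.00038).

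The lower tubulins were Tubb4a, Tuba6, Tuba3b and Tubb5. Tubb4a, a beta tubulin best known from brain, was 8.85, 8.62, 8.85 and 9.81 in HC, with replicate D the highest, against 9.87 to 10.77 in GER and DC (-1.21 ± 0.25, 2.32-fold lower, adjusted p = 0.0017). Without replicate D its difference was -1.47 (adjusted p = 1e-04). Tuba6, an older name of the alpha tubulin Tuba1c in the RefSeq gene table, was 10.43, 10.09, 9.61 and 10.22 against 10.82 to 11.08 (-0.88 ± 0.16, adjusted p = 0.00065). Tuba3b (-0.53 ± 0.15, adjusted p = 0.013) and Tubb5, a beta tubulin of most cell types (-0.48 ± 0.17, adjusted p = 0.033), overlapped between HC and the 5 arrays. Tuba3b did not pass without DC replicate B (-0.46, adjusted p = 0.058), with the beadchip as a block (-0.42, 0.071), against GER alone (-0.20, 0.38) or within beadchip 1 (-0.66, 0.059), and its difference was 0.03 within beadchip 2. Tubb5 did not pass without any 1 of HC A (-0.40, adjusted p = 0.096), HC B (-0.46, 0.074), HC C (-0.41, 0.091), GER B (-0.49, 0.052), GER C (-0.43, 0.066), DC A (-0.51, 0.062) or DC B (-0.45, 0.093). Leaving out DC B took the count of lower members from 5 to 3. Within beadchip 2 Tubb4a (-1.54, adjusted p = 0.12) and Tuba6 (-0.97, 0.12) did not pass, and within beadchip 1 Tuba6 did not (-0.56, 0.075).

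On the probes shown, the major tubulin genes of developing neurons did not differ between HC and the epithelial gates beyond their errors. Tubb2b lay between 14.64 and 14.98 on all 9 arrays (0.02 ± 0.10, adjusted p = 0.9), while its other 4 probes gave differences from -0.52 to -0.01. Tuba1a ran from 13.16 to 14.11 in HC and from 13.39 to 14.07 in GER and DC (-0.05 ± 0.18, adjusted p = 0.83), and Tuba1b differed by 0.08 ± 0.12 (adjusted p = 0.64). Tuba1b lay between 14.81 and 15.26 on every array. Whether signals as bright as those of Tubb2b and Tuba1b compress differences was not tested. Tuba3a differed by 0.09 ± 0.19 (adjusted p = 0.73) and Tubb2a by 0.19 ± 0.22 (adjusted p = 0.52). Tubb4b, a relative under an older symbol that is abundant in ciliary axonemes, was 14.17, 14.38, 14.16 and 14.13 in HC against 12.94 to 13.68 (0.81 ± 0.16, adjusted p = 0.0014). The coding sequences of Tuba1a, Tuba1b and Tuba6, of Tuba3a and Tuba3b, and of Tubb2a and Tubb2b are close to each other, and probe sequences are not used here, so signal shared between these genes cannot be separated with certainty.

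**Figure D3:**
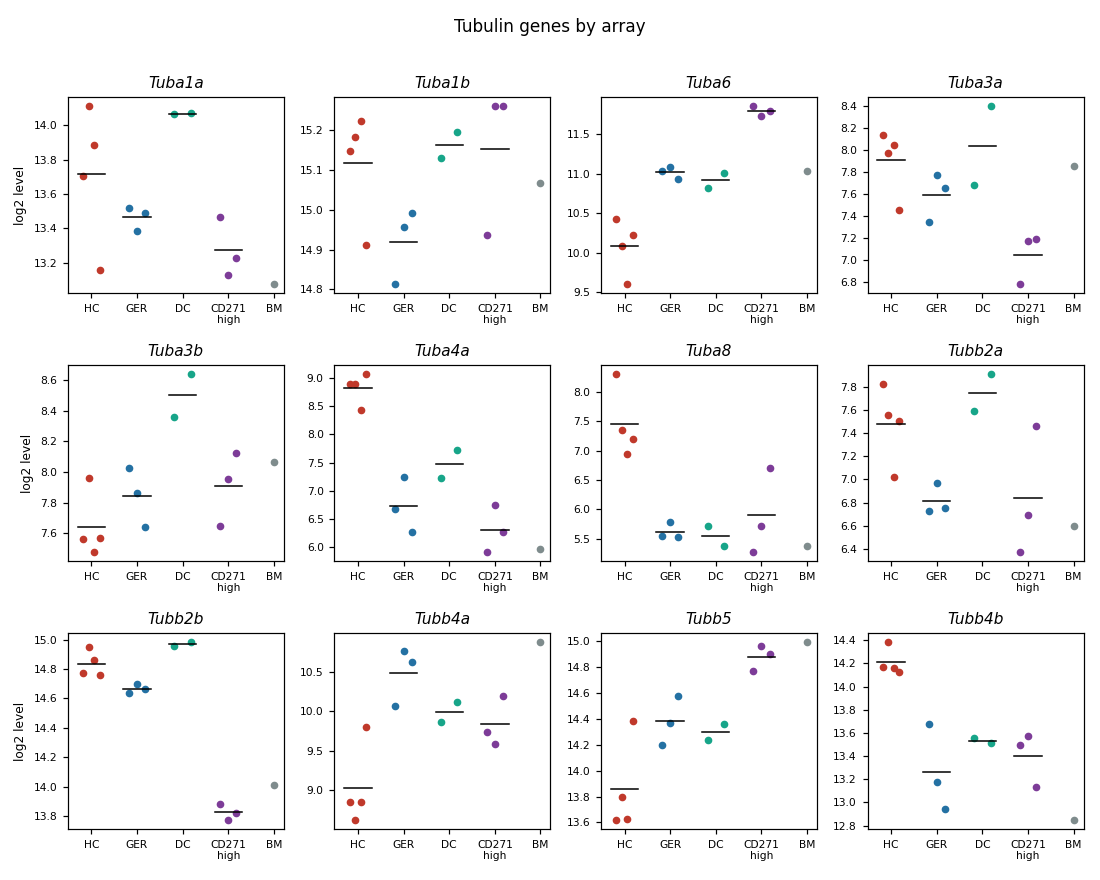
Log2 level (vertical axis, a separate scale in each panel) of the 11 tubulin members that passed the filter and of Tubb4b, on every array. Points are arrays and black lines population means. Tuba4a and Tuba8 are highest in HC, Tubb2b is lowest in CD271high, and Tuba6 is highest in CD271high.

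Other parts of tubulin metabolism moved in both directions in HC. Among 16 genes of tubulin folding 3 were higher and 1 lower (25%, against 46% of all genes). Cct7, a chaperonin subunit, rose most (1.5 ± 0.26, adjusted p = 0.00055). Among 11 genes of tubulin modification 2 were higher and 5 lower (63.6%, median -0.50). Atat1, the tubulin acetyltransferase, differed by -0.99 ± 0.21 (adjusted p = 0.0022), and Svbp, the partner of the enzymes that remove the final tyrosine of alpha tubulin, by 1.06 ± 0.12 (adjusted p = 1.5e-05). Ttll6, a glutamylase of cilia, was undetected on the 4 HC arrays, with a gap of at least 1.15-fold (adjusted p = 0.0026). Among 29 microtubule-associated and severing proteins 7 were higher and 8 lower (51.7%, near the share of all genes). For Stmn3, a tubulin-sequestering stathmin of neurons, HC exceeded GER and DC at least 4.19-fold (adjusted p = 2e-10). Dcx, doublecortin, was undetected in HC, a gap of at least 2.03-fold (adjusted p = 3.1e-05), and its relative Dclk2 fell by 1.81 on the log2 scale (SE 0.15, adjusted p = 1.1e-06).

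GER and DC were compared to ask whether the medial ridge cells and the lateral gate, which should hold Deiters' cells, differ in motors or tubulins. By limma 0 of the 38 genes passed, against 4.16% of all genes (0.892% higher and 3.27% lower in GER), and 8 had an unadjusted p under 0.05 (21.1%, against 13.7% of all genes). Those 8 were Dnah2, which neither gate detected, Kif1b, Kif27, Tuba1a, Tuba3b, Tuba4a, Tubb2a and Tubb2b. Tuba1a was 13.52, 13.39 and 13.49 in GER and 14.07 and 14.07 in DC (-0.60 ± 0.24, adjusted p = 0.26). Tubb2b was 14.64, 14.69 and 14.67 against 14.96 and 14.98 (-0.30 ± 0.13, adjusted p = 0.34), and Tuba3b 8.03, 7.86 and 7.64 against 8.36 and 8.64 (-0.66 ± 0.21, adjusted p = 0.12). Tubb2a was undetected in GER and detected on both DC arrays (-0.94 ± 0.30, adjusted p = 0.14). These tubulins lay lower on all 3 GER arrays than on both DC arrays, but no difference passed, and 2 DC arrays limit the precision.

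A relative did pass. Dync1i1, the dynein intermediate chain best known from neurons and listed under an older symbol, was 8.10, 8.14 and 6.79 in GER and 10.44 and 10.61 in DC, a 7.20-fold excess in DC (fitted GER minus DC -2.85 ± 0.40, adjusted p = 0.0015). HC lay between at 9.92, 9.46, 8.81 and 9.27, CD271high was at 7.46, 7.66 and 8.10, and BM at 9.61. The ubiquitous Dync1i2 differed by 0.13 ± 0.16 between GER and DC (adjusted p = 0.86). Among the other lists Fez1 was also higher in DC (-2.11 ± 0.20, adjusted p = 0.00011), as was Tppp, a tubulin-polymerizing protein of glia (at least 1.35-fold, adjusted p = 0.0033).

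CD271high differed from GER and DC in 17 of the 38 genes, 8 higher and 9 lower (44.7%, against 33.2% of all genes). Beside the 6 mitotic kinesins, the higher genes were tubulins. Tuba6 was 11.86, 11.73 and 11.79 in CD271high against 10.82 to 11.08 in GER and DC, 1.77-fold higher (0.83 ± 0.17, adjusted p = 0.0027). Tubb5 was 14.77, 14.96 and 14.90 against 14.20 to 14.58 (0.54 ± 0.18, adjusted p = 0.04). That call was lost without any 1 of GER A (0.49, adjusted p = 0.073), GER B (0.53, 0.065), DC A (0.51, 0.1), DC B (0.57, 0.071), CD271high A (0.59, 0.066), B (0.49, 0.12) or C (0.52, 0.096), and with median scaling (0.39, 0.22). Both genes were lower in HC than in GER and DC, so the populations ranked in the same order for both, CD271high above GER and DC above HC, with HC replicate D of Tubb5 (14.38) inside the range of GER and DC.

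The lower genes were 5 kinesins, a kinesin light chain and 3 tubulins. Tubb2b, the beta tubulin of migrating neurons, was 13.88, 13.77 and 13.82 in CD271high, below every HC, GER and DC array (-0.99 ± 0.11, 1.99-fold lower, adjusted p = 2.3e-05). Its 5 probes that passed the filter gave differences from -1.94 to -0.87. Kif21a, a kinesin that restrains microtubule growth, was 8.92, 8.13 and 8.16 against 9.54 to 10.67 (-1.76 ± 0.29, adjusted p = 0.00062). Of the heterotrimeric kinesin subunits, Kif3a and Kif3c were lower. Kif3a was 10.96, 9.92 and 11.16 against 11.47 to 12.12 (-1.07 ± 0.26, adjusted p = 0.0069). Kif3c was 10.90, 10.81 and 10.76 against 11.65 to 12.10 (-1.03 ± 0.15, adjusted p = 2e-04). The second probe of Kif3a gave -0.21. Kif27 was lower as well (-1.20 ± 0.23, adjusted p = 0.0016), but it was detected on 1 of 3 CD271high arrays (6.0, 6.46 and 6.94), its second probe, detected on 2 arrays, gave 0.49, and with the mean over probes it did not pass (-0.35, adjusted p = 0.2).

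Klc2 (-0.89 ± 0.20, adjusted p = 0.0048), Kif5c (-0.60 ± 0.15, adjusted p = 0.011), Tuba3a (-0.77 ± 0.21, adjusted p = 0.015) and Tuba4a (-0.79 ± 0.25, adjusted p = 0.032) made up the 9. Tuba4a was undetected in CD271high and in GER and detected on both DC arrays, so no fold is given. Tuba4a did not pass without background correction (-0.30, adjusted p = 0.09) or without GER B (-0.66, adjusted p = 0.054), DC B (-0.67, 0.11), CD271high A (-0.59, 0.15) or CD271high C (-0.77, 0.082). Tuba3a did not pass without DC B (-0.59, 0.063) or CD271high A (-0.63, 0.075), nor Kif5c without CD271high A (-0.52, 0.052), and without CD271high A the count of lower members was 6. Within beadchip 2 alone, with 1 array on each side, 0 members were higher and 1 lower. Against HC in place of GER and DC, 11 members were higher and 18 lower. More genes passed there in general, 5551 of 10088 against 3351 in the main comparison. The macrophage and glia scores of CD271high moved with these differences as well, and their part was not tested.

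Other microtubule genes of CD271high included Tubb6, a relative and broadly expressed beta tubulin, at 10.05, 10.83 and 10.71 against 5.86 to 7.85 in GER and DC (3.81 ± 0.75, adjusted p = 0.002). For Fignl1, an ATPase related to the severing enzyme fidgetin and known from DNA repair, the excess was at least 4.37-fold (adjusted p = 2.2e-06), and for Spdl1, the dynein adaptor of kinetochores, at least 1.55-fold (adjusted p = 0.00032). Tppp3 differed by 1.66 ± 0.20 (adjusted p = 5.4e-05) and Dclk3 by 2.25 ± 0.28 (adjusted p = 5.9e-05). Clstn3, a calsyntenin of the family that links kinesin to cargo, was lower (-2.38 ± 0.24, adjusted p = 1.1e-05), as was Tbcel, a protein that destabilizes tubulin (-1.11 ± 0.13, adjusted p = 3.4e-05). Among the 31 motor regulators and adaptors 6 were higher and 4 lower (32.3%, near the 33.2% of all genes). Of 16 genes of intraflagellar transport, 0 were higher and 1 lower (6.25%).

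**Figure D4:**
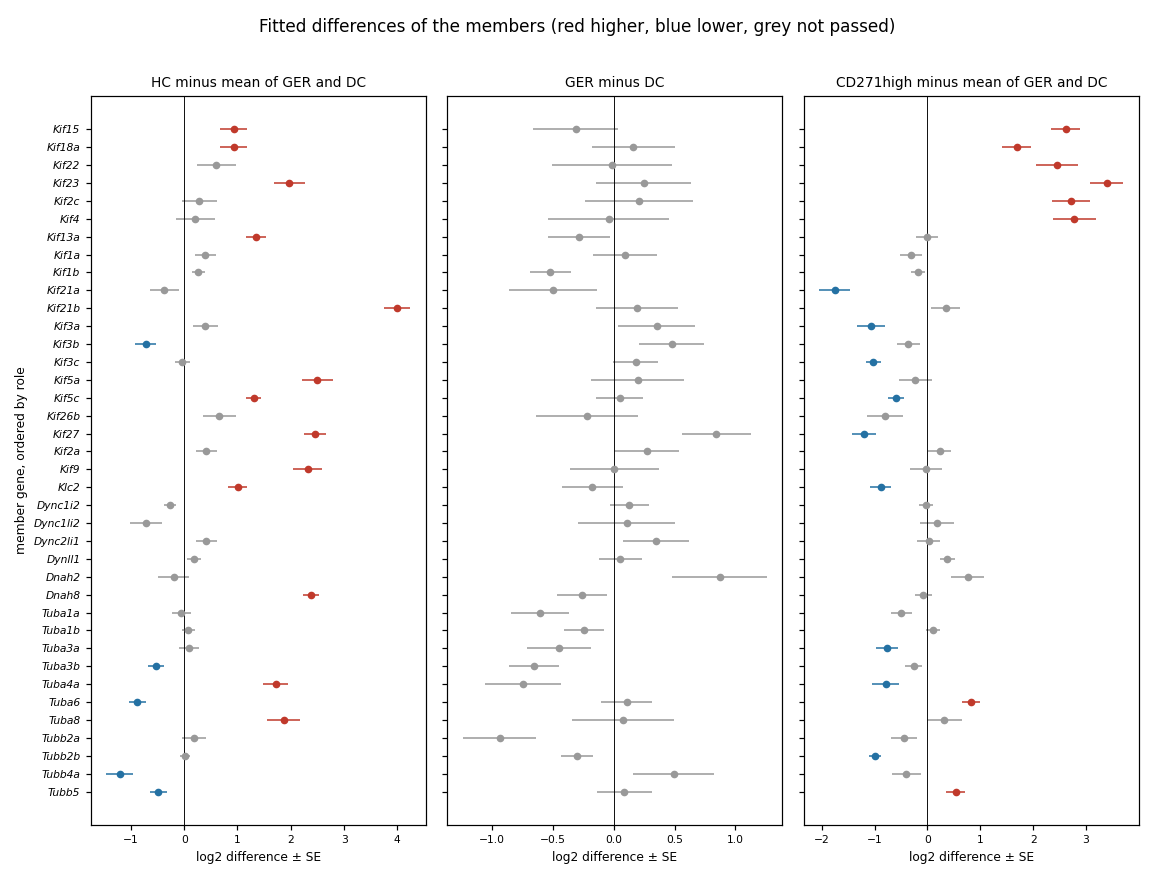
Fitted log2 difference ± SE (horizontal axis, a separate scale in each panel) of the 38 members in the 3 comparisons, ordered by role. Red points passed as higher, blue as lower, and grey did not pass. The first 6 rows, the mitotic kinesins, are all red on the right, the middle panel has no coloured point, and the difference of Kif21b in HC is from levels below detection in GER and DC.

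BM, with 1 array, is described without a test. Of the 38 genes 8 lay above all 12 other arrays (21.1%, against 18.8% of all genes) and 5 below all of them (13.2%, against 15.9%), shares close to those of all genes. Above were Kif2c, Kif15, Kif18a, Kif22, Tubb4a (10.88), Tubb5 (14.99), Dynll1 (14.51) and Dnah2. Below were Kif5c (8.70, against 10.23 to 12.54 elsewhere), Kif13a (7.80), Kif5a, Kif2a (8.54) and Tuba1a (13.08). Kif5a, at 5.66 in BM, was undetected there and on other arrays, so its place is an order among background levels. Among relatives Tubb6 was at 11.69, above all, and Dynlrb2 at 7.40 and Dynll2 at 6.16, below all. BM scored high for glia, mesenchyme and endothelium (3.75, 3.20 and 2.69), whose part in these values was not tested.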

How the data were processed

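Biotin-labelled cRNA of 13 sorted samples was hybridised to Illumina arrays, per the labels. The deposited scanner table holds, per the file headers, mean bead intensity, a detection p-value, a bead standard error and a bead count for 25697 probes. The last 2 are not used here. The second deposited table holds log2 values, which matched log2 intensities after quantile normalization. The scanner software is not given in the sources used here. Gene names came from RefSeq's GRCm38.p6 table through each probe's accession or Entrez ID (24356 matched, 1341 kept the file's symbol).

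In R 4.3.3 with limma 3.58.1, neqc (normexp from the detection p-values, offset 16, quantile normalization, log2) gave the values. The share of probes with a detection p under 0.01 ran from 40.25% to 45.21% over the arrays. Probes detected on at least 2 arrays were kept, and the probe with the highest mean stood for a gene. A linear model (lmFit, eBayes) with a mean for each population was fitted to all 13 arrays, leaving 8 residual degrees of freedom. Tests were two-sided, with a threshold of 0.05 on the adjusted p. The number of arrays limits precision. The fit was tested on simulated data.

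Genes were named by this rule: per comparison the 8 highest and 8 lowest members that passed, all tubulins and cytoplasmic dynein chains tested, and up to 3 genes of each other microtubule list. Kifap3 was added as a partner of Kif3a. Members and lists were chosen with earlier results of these data known. Alternatives covered normalization, background, the deposited values, the filter, the probe, the beadchip, the replicate letter, the reference and each replicate left out.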

Additional observations from a re-analysis of the deposited data

Results flagged for a closer look

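Kif2c in HC replicate D stood at 6.99, while replicates A to C lay between 5.28 and 5.52. None of the 4 HC arrays detected the gene, so the gap is one between background levels. Its gap to the nearest array took 0.857 of the range of the 4 arrays, above Dixon's 95% critical value for 4 arrays. It was the only 1 of 38 members to do so in HC, and chance alone would mark about 1 in 20 groups. Replicate D also had the highest HC scores for proliferating cells (0.79) and glia (1.06), and their part in the value was not tested.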

How the results depend on the processing

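For HC, 13 members were higher and 5 lower, and for CD271high 8 and 9. Across settings that left out a replicate these ranged from 13 to 14 and 3 to 5 for HC, from 7 to 9 and 6 to 10 for CD271high, and stayed at 0 and 0 for GER against DC. Within beadchip 1, 3 members were lower in HC, and against DC alone 3. Within beadchip 2 there were 8 higher and 0 lower in HC and 0 higher and 1 lower in CD271high. Tuba3b turned to 0.0267 in HC within beadchip 2. Against HC alone 18 members were lower in CD271high, and against HC, GER and DC 15. Of all 10088 genes, 5551 and 4398 passed in these settings, against 3351 in the main fit. The cause was not tested, but beadchip 2 holds fewer arrays. No other direction of a called member reversed in these settings. Within beadchip 2 GER and DC could not be compared. With the replicate block (the letter as a block) 15 members were higher and 5 lower in HC, 9 and 10 in CD271high, and 0 and 0 in GER against DC. Kif3b lost its call there (adjusted p = 0.056). Samples sharing a letter correlated by -0.126 to 0.183 in their deviations from population means, and those with different letters by -0.278 to 0.189. With so few arrays per population these values cannot settle whether the letter pairs samples. The deposited log2 values gave the same counts as quantile normalization without background correction (13 and 6 for HC, 9 and 9 for CD271high). Levels near the detection floor of 6.76 to 7.35 limit the folds of genes undetected on a side.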
